A study of Mus musculus with 18 samples.

Results

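The data concern 38 genes that encode the lysosome of the macrophage: its proton pump, its membrane proteins, its hydrolases, the cofactors these enzymes use, and a pair of transcription factors that control such genes. They were listed by symbol and found among 38887 genes measured by RNA sequencing in mouse bone marrow-derived macrophages (BMMs), and all 38 could be tested in every comparison. They comprised 6 subunits of the membrane sector V0 and 7 of the cytosolic sector V1 of the vacuolar H+-ATPase (V-ATPase), 2 accessory proteins of the pump, 7 membrane proteins and channels, 10 hydrolases, 4 luminal cofactors and carriers, and the transcription factors Tfeb and Tfe3.

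BMMs were grown for 6 days with 50 ng/ml M-CSF from female C57BL/6J mice aged 10 to 23 weeks and were left untreated or received 100 ng/ml LPS for 4 h, with 3 libraries for each of 6 groups. By the study's methods, the animals called wild-type (WT) carried the Lyz2-Cre allele, as did both other genotypes. The levels of Lyz2, given below, set WT apart from both at this locus. In GILZ KO, exon 6 of Tsc22d3 (the gene of glucocorticoid-induced leucine zipper, GILZ) was deleted in cells that express Lyz2. In GILZ TG, a Gilz-1 cDNA in the ROSA26 locus was switched on in the same cells by removal of a loxP-flanked stop cassette. The question was how lysosomal transcripts differed after LPS and between macrophages without GILZ, with GILZ and with an excess of it. Levels are given as TPM, a length-corrected share of all transcripts, and differences as log2 fold changes.

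The lysosome is the acidic compartment in which macrophages digest engulfed bacteria, dead cells and their own worn-out organelles. The V-ATPase couples ATP hydrolysis in V1 to proton transport through V0 and so acidifies the lumen, where hydrolases cleave glycans, lipids and proteins, some of them only with a helper protein that lifts the lipid out of a membrane. TFEB and TFE3 are related transcription factors that bind a palindromic E-box, the core of the CLEAR motif, upstream of many lysosomal genes, and TFEB is held in the cytosol when nutrients are plentiful.

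RefSeq promoters (250 bases before to 50 after the start site, GRCm38.p6) were at hand for 32 of the 38 genes. The E-box core CACGTG occurred in 8 of these 32 (25%), and in 8.09% of 27025 genes with such a promoter. The longer form TCACGTGA, which contains the core, occurred in 5 of 32 (15.6%) against 1.12% of all genes. These letters read alike on both strands. Stretches around every core copy upstream of the start site are shown for 4 genes, a membrane protein, 2 glycan-cleaving hydrolases and a subunit of the pump, because they show how such copies are arranged; the core is in capitals, each sequence runs 5′ to 3′ on the strand of the gene, and a match in letters is not evidence of binding.
Lamp1 (chr8:13159088-13159160, plus strand): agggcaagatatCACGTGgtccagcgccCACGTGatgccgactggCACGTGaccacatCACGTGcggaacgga
Gla (chrX:134601182-134601244, minus strand): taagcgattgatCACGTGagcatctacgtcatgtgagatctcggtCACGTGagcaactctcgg
Atp6v0b (chr4:117887330-117887377, minus strand): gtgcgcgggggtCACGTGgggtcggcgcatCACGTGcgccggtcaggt
Glb1 (chr9:114401018-114401047, plus strand): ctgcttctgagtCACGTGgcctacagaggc
Lamp1 held 4 copies of the core, all between positions -61 and -10 from its start site. Gla and Atp6v0b held 2 copies each, and Glb1 held 1.

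The libraries held 14583055 to 38557029 expected counts (reads assigned to genes, shared reads in parts), with a median of 24450362. Depth differed between groups. The median was 29235641 in WT, 21796635 in GILZ KO and 23958059 in GILZ TG untreated, and 25813123, 15491518 and 33356120 after LPS. Tsc22d3 checked the genotype labels: its mean was 16.5 ± 2.08 TPM (SD, n = 3) in untreated WT, 2.34 ± 0.461 in GILZ KO and 156 ± 3.93 in GILZ TG. After LPS it was 5.15 ± 0.627 TPM in WT, 2.91 ± 0.392 in GILZ KO and 132 ± 7.64 in GILZ TG, so GILZ KO and WT lay closer together (log2 fold change -2.74 ± 0.14 in untreated cells and -0.69 ± 0.14 after LPS, SE; edgeR adjusted p = 2.16e-05 and 0.15), still without overlap in TPM. Lyz2, itself a lysosomal enzyme (lysozyme) and the locus that holds Cre, stood at 12839.8 ± 2276 TPM in untreated WT, 33.6 ± 10.6 in GILZ KO and 33 ± 18.3 in GILZ TG (SD, n = 3). After LPS it was at 8088 ± 1351, 62.9 ± 5.08 and 44.8 ± 24.2 TPM in the same order. WT thus differed from both other genotypes at the Cre locus as well as in GILZ, and in every comparison with WT the effects of GILZ and of this locus cannot be told apart. GILZ KO and GILZ TG had no such gap in Lyz2 between them. The macrophage markers Adgre1, Csf1r, Itgam, Fcgr1, Mertk, Cd14, Mrc1 and Lyz2 were above 0 in all 18 libraries.

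A pair of GILZ TG libraries stood apart in each treatment. The summed level of 8 stromal fibroblast markers, led by Col1a1 or Sparc, was 161 and 186 TPM in replicates 1 and 2 of untreated GILZ TG and 127 and 173 TPM in those of LPS-treated GILZ TG, against 15.2 and 14.7 TPM in replicate 3 and 7.54 to 33.2 TPM in the libraries of WT and GILZ KO. The summed level of 8 neutrophil-lineage markers, led by S100a9 in GILZ TG, was 187, 483 and 68.3 TPM in untreated and 218, 516 and 83.5 TPM in LPS-treated GILZ TG, against 20.7 to 77.2 TPM in WT and GILZ KO. The sum of 7 B-lineage markers, led by Igkc, was 93.5 and 158 TPM in replicates 1 and 2 of untreated GILZ TG and 81.7 and 149 TPM in those of LPS-treated GILZ TG, against 16.8 to 36.1 TPM in the other libraries. The T cell marker Cd3e was at 0 in all 18 libraries. The part of these transcripts in the genotype results was not tested. The genes called between GILZ TG and another genotype are therefore given with and without replicates 1 and 2, which leaves 1 GILZ TG library per treatment, assumed to vary like the other groups. In bulk RNA, fewer cells of one kind and less RNA per cell cannot be told apart.

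In untreated WT BMMs the 38 genes made up 1.97% ± 0.104 of all TPM (SD, n = 3), with levels that differed widely between genes. Psap, the precursor of the saposins, was the highest at 2954 ± 93.6 TPM. It was followed by the membrane glycoprotein Gpnmb at 1747 ± 247, the progranulin gene Grn at 1715 ± 72.1, the macrophage glycoprotein Cd68 at 1526 ± 159 and the proton-carrying proteolipid Atp6v0c at 1459 ± 59.7 TPM; neighbours among these 4 overlapped within 1 SD of each other. The lysosomal membrane protein Lamp1 stood at 1194 ± 13.1, the acid lipase Lipa at 1157 ± 182 and the tetraspanin Cd63 at 1024 ± 67.8 TPM. The lowest were Tfeb at 28.5 ± 0.897 TPM and the V0 subunit Atp6v0d2 at 11 ± 4.69 TPM. Within a group the replicates lay close together: the median coefficient of variation over the 38 genes was 3.14% to 6.69% across the 6 groups.

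Fold changes after LPS depended on how libraries were scaled, and 2 scales are used. On the TMM scale, in which most genes are taken to stay level, the median log2 fold change of all genes tested was -0.02 in WT. On the TPM scale, in which every library has the same sum, it was -0.51 in WT, -0.52 in GILZ KO and -0.51 in GILZ TG. Members' medians were 0.24, 0.24 and 0.25 on the TMM scale and -0.39 in each genotype on the TPM scale, above the median of all genes on either scale. TMM factors were 1.24 to 1.28 in the untreated libraries and 0.756 to 0.828 in the LPS libraries. Expressed as a share of all TPM, the 38 genes fell from 1.97% to 1.54% ± 0.0384 in WT, from 2.03% ± 0.0103 to 1.58% ± 0.00528 in GILZ KO and from 2.06% ± 0.0116 to 1.64% ± 0.0305 in GILZ TG (SD, n = 3), with no overlap between treatments; these shares were not tested.

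By edgeR's quasi-likelihood test (Benjamini-Hochberg adjusted p under 0.05), 29 of 38 genes were called after LPS in WT, near the background of 68.6% of all genes: 27 were higher (background 33.5%) and 2 lower (35.1%). With 1 library left out in turn, 2 to 5 were lower in WT. On the TPM scale (limma on log2(TPM + 1)) the split in WT turned to 3 higher (background 16.1%) and 31 lower (65%), and 21 genes were called higher on the TMM scale and lower on the TPM scale (background 8.69%). GILZ KO had 25 higher and 5 lower on the TMM scale (backgrounds 33.2% and 35.4%) but 2 and 32 on the TPM scale (15.3% and 66.1%). GILZ TG had 28 higher and 3 lower (33.6% and 35.1%) but 3 and 32 on the TPM scale (15.6% and 65.2%). In GILZ TG, where libraries of the same number deviated together across treatments, a block for the number gave 30 higher and 5 lower on the TMM scale (backgrounds 35.7% and 36.5%), the 5 being Atp6v0d2, Atp6v1c1, Lipa, Neu1 and Tfeb. The block added 4 calls in GILZ TG: Atp6v0d1 (0.14, edgeR adjusted p = 0.0226) and Gpnmb (0.21, 0.000451, against 0.051 without the block) were higher, and Atp6v0d2 (-0.28, 0.0221) and Lipa (-0.15, 0.00665) lower. With the block WT had 30 higher and 3 lower (backgrounds 35.7% and 36.6%) and GILZ KO 27 and 6 (35% and 36.5%). Genes called in the same direction on both scales in all 3 genotypes were Atp6v1e1 and Npc2, which were higher (background 13.8%), and Tfeb and Neu1, which were lower (30.1%). On the TMM scale 24 genes were called higher in all 3 genotypes (background 29.3%), 2 lower in all 3 (30.3%), and 3 (Atp6v0d2, Gpnmb, Mcoln1) in none (21.9%), all without the block. No gene was called in different directions. With the block Gpnmb was called higher in WT (0.18, edgeR adjusted p = 0.00148), GILZ KO (0.15, 0.00571) and GILZ TG (0.21, 0.000451). Atp6v0d2 was then called lower in GILZ KO and GILZ TG. By TPM alone, 30 genes in WT (78.9%, background 64.8%), 33 in GILZ KO (86.8%, background 67.3%) and 31 in GILZ TG (81.6%, background 65.2%) were lower in every LPS library than in any untreated one. The reverse held for 3 (7.89%, background 16.3%), 2 (5.26%, background 16.4%) and 2 genes (5.26%, background 15.7%).

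**Figure D1:**
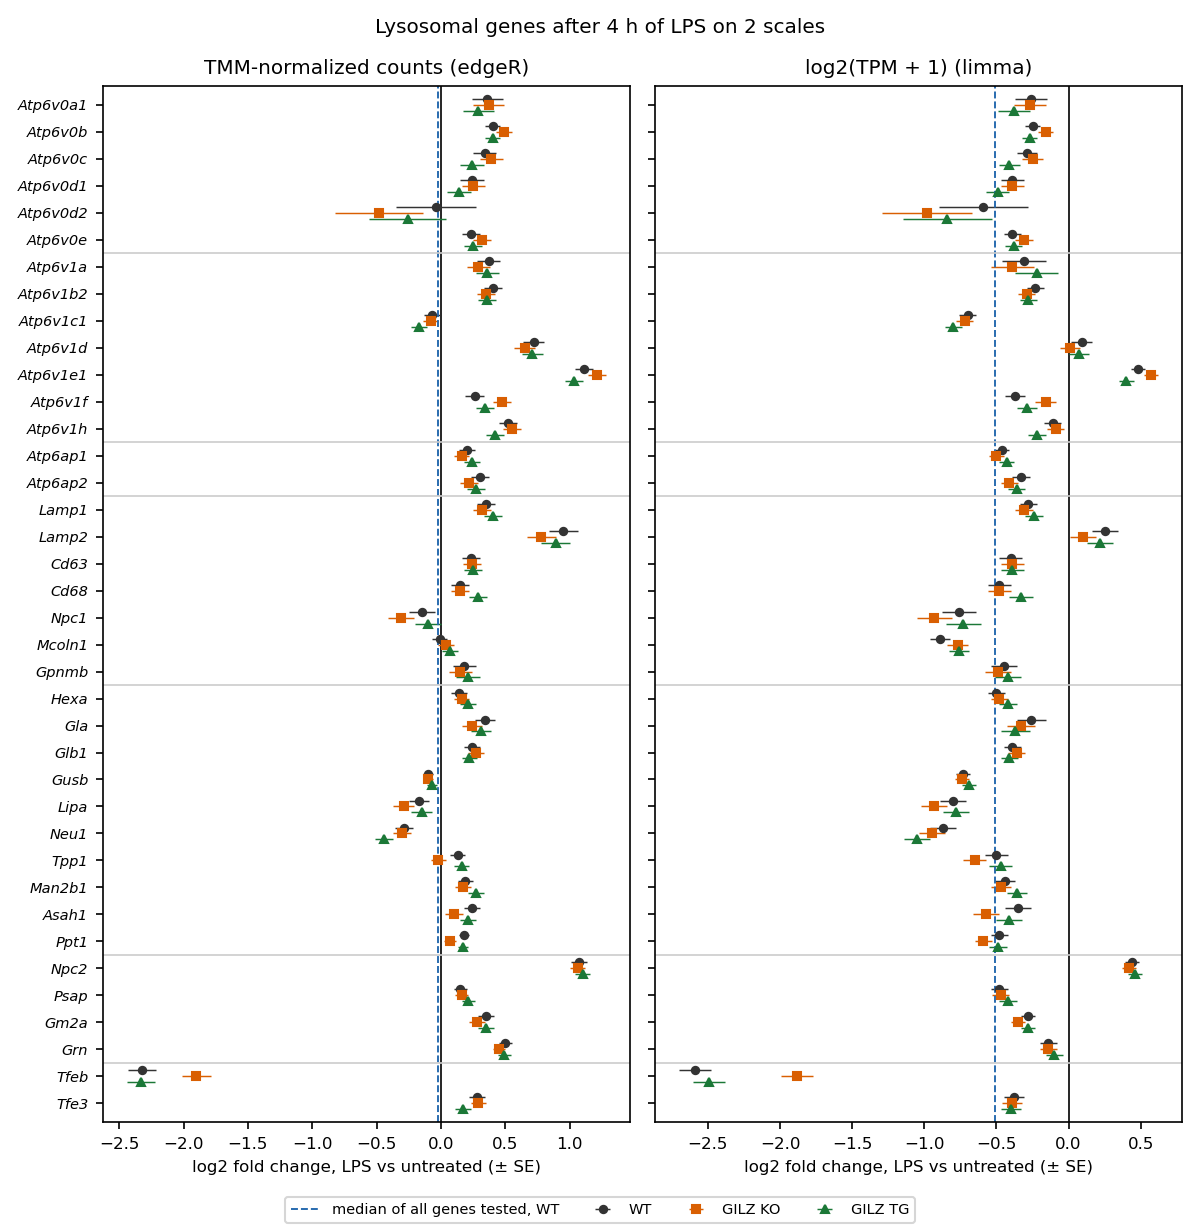
Log2 fold change, LPS against untreated, of each of the 38 genes on the TMM scale (left) and on the log2(TPM + 1) scale (right), by role and genotype (one symbol per genotype), with bars of 1 SE, the dashed line at the median of all genes tested in WT (-0.02 and -0.51) and the solid line at 0. Most genes sit right of 0 on the left panel and left of 0 on the right one; Tfeb lies far left on both.

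Most V-ATPase subunits shared a modest change whose sign depended on the scale. In WT 33.5% of all genes were called higher on the TMM scale and 65% lower on the TPM scale, with similar shares in GILZ KO (33.2% and 66.1%) and GILZ TG (33.6% and 65.2%). Of the 6 V0 genes, 5 were called higher in WT on the TMM scale (median 0.29) and 5 lower on the TPM scale (median -0.34). In GILZ KO these were 5 and 6, and in GILZ TG 4 and 6. With the replicate block on the TMM scale, 5 were higher in each genotype and 0, 1 and 1 lower in WT, GILZ KO and GILZ TG. Of the 7 V1 genes, 6 were called higher in each genotype on the TMM scale, with medians of 0.40, 0.47 and 0.36, while on the TPM scale 1 was called higher in each and 3, 3 and 4 lower, with medians of -0.23, -0.16 and -0.22. Both accessory genes, Atp6ap1 and Atp6ap2, were called higher in all 3 genotypes on the TMM scale and lower in all 3 on the TPM scale. The share of all TPM held by the pump genes was 0.521%, 0.528% and 0.539% in untreated WT, GILZ KO and GILZ TG and 0.437%, 0.451% and 0.438% after LPS.

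Atp6v1e1, which encodes a peripheral stalk subunit that braces V1 against V0, was the one pump gene among the 38 called higher on both scales in all 3 genotypes. Its TPM was 289.8, 278 and 272 in untreated WT and 372, 416 and 380.3 after LPS. In GILZ KO it was 273, 275 and 280.2 before and 409.6, 400.2 and 424 after LPS, and in GILZ TG 289, 289 and 288 before and 376, 362 and 405 after. Every LPS library lay above every untreated one in each genotype. The log2 fold changes on the TMM scale were 1.11 ± 0.07 in WT, 1.21 ± 0.07 in GILZ KO and 1.03 ± 0.07 in GILZ TG (SE; edgeR adjusted p = 1.02e-10, 3.65e-11 and 2.59e-10), and on the TPM scale 0.48, 0.57 and 0.40. Atp6v1d, a subunit of the rotor shaft, stood at 127, 119.6 and 115 TPM in untreated WT and at 139, 126 and 119 after LPS. In GILZ KO it was at 119, 117 and 112 and then 107, 124 and 121 TPM, and in GILZ TG at 128, 119.5 and 134 and then 142, 126 and 133 TPM. Its treatments overlapped in all 3 genotypes: it was called higher on the TMM scale (0.72 ± 0.08, 0.65 ± 0.08 and 0.71 ± 0.08) and was not called on the TPM scale (0.09, 0.01 and 0.07). Atp6v1c1, the subunit that clamps the stalks together, was the one V1 gene not called higher on the TMM scale in any genotype, with -0.07 ± 0.06, -0.08 ± 0.06 and -0.17 ± 0.06, of which the last, in GILZ TG, was called lower. On the TPM scale it was called lower in all 3 genotypes (-0.70, -0.72 and -0.80), from 201, 183 and 173 TPM in untreated WT to 117, 115 and 109.7 after LPS.

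The paralogues Atp6v0d1 and Atp6v0d2 encode the collar that joins the rotor to the proteolipid ring; the former is made in most cells and the latter in few, osteoclasts among them. Atp6v0d1 stood at 171, 169 and 193 TPM in untreated WT and 127, 135 and 145 after LPS. GILZ KO had 171, 183 and 179.5 and then 141, 132 and 135 TPM, and GILZ TG was at 162, 162 and 193 and then 117, 118 and 132 TPM. LPS libraries were lower in TPM than untreated ones in each genotype, without overlap. On the TMM scale the change had the other sign, 0.24 ± 0.09 in WT and 0.25 ± 0.09 in GILZ KO (edgeR adjusted p = 0.025 and 0.0218) and 0.14 ± 0.09 in GILZ TG (0.183), while on the TPM scale it was -0.39, -0.39 and -0.49. The TMM call in WT was lost on leaving out untreated replicate 1 (0.16, adjusted p = 0.159) or 2 (0.16, 0.166) or LPS replicate 2 (0.23, 0.0608) or 3 (0.21, 0.0858). In GILZ KO it was lost without untreated replicate 1 (0.20, adjusted p = 0.0913) or 3 (0.23, 0.065) or LPS replicate 3 (0.24, 0.0566), and in GILZ TG a call appeared without untreated replicate 3 (0.22, 0.0257) and with the replicate block (0.14, 0.0226). Atp6v0d2 was far lower, at 16.1, 10.1 and 6.85 TPM in untreated WT and 9.41, 7.09 and 4.21 after LPS. It stood at 11.9, 9.24 and 8.82 and then 5.11, 3.54 and 5.12 TPM in GILZ KO, and at 17.3, 20.7 and 11.5 and then 8.36, 12.3 and 5.91 TPM in GILZ TG. The replicates varied widely and only the treatments of GILZ KO did not overlap. Atp6v0d2 was not called on the TMM scale in any genotype (-0.04 ± 0.31, -0.48 ± 0.34 and -0.26 ± 0.30), and as few as 71 counts lay behind a value. On the TPM scale it was at -0.59, -0.98 and -0.84 and was called lower in GILZ KO and GILZ TG (limma adjusted p = 0.00835 and 0.0196) but not in WT (0.0904). With the replicate block it was called lower on the TMM scale too in GILZ KO (-0.49, edgeR adjusted p = 0.00252) and GILZ TG (-0.28, 0.0221), but not in WT. Of 9 osteoclast markers, Mmp9 was the most abundant in every library, at 116 to 409 TPM, while Calcr was at 0 in every untreated library but replicate 3 of GILZ TG. After LPS Calcr was above 0 in every WT library and in replicate 1 of GILZ KO and GILZ TG. Its means were then 0.0433 TPM in WT, 0.0167 in GILZ KO and 0.00667 in GILZ TG.

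Among the 7 membrane proteins, 3 were called higher in WT and in GILZ KO on the TMM scale and 4 in GILZ TG, whereas 6 were called lower in each on the TPM scale. The shares of all genes were 33.5%, 33.2% and 33.6% higher on the TMM scale and 65%, 66.1% and 65.2% lower on the TPM scale. With the replicate block 5 were higher in each genotype on the TMM scale (backgrounds 35.7%, 35% and 35.7%). Lamp2, a heavily glycosylated membrane protein needed for fusion of autophagosomes and phagosomes with lysosomes, had the largest rise on the TMM scale. It stood at 319, 308 and 316 TPM in untreated WT and at 373, 345 and 408 after LPS. GILZ KO had 364, 336 and 322 and then 366, 372 and 354 TPM, and GILZ TG was at 276, 281 and 325 and then 305, 323 and 401 TPM. Treatments were separate in WT and overlapped in the other genotypes. The log2 fold changes were 0.95 ± 0.11, 0.78 ± 0.11 and 0.89 ± 0.11 on the TMM scale (edgeR adjusted p = 6.49e-07, 6.9e-06 and 1.47e-06) and 0.25, 0.10 and 0.22 on the TPM scale, where GILZ KO was not called. Its relative Lamp1 went the other way in TPM, from 1190.5, 1208 and 1183 to 977, 941 and 1033 in WT, with a TMM change of 0.35 ± 0.07 against -0.28 on the TPM scale. Mcoln1, the calcium channel of the lysosome, was not called on the TMM scale (-0.01 ± 0.06 in WT) but was lower on the TPM scale (-0.89), where its effective length, by which TPM divides, was 1.2 times as long after LPS as before; its part in the TPM change was not tested. Npc1, the cholesterol exporter that receives its cargo from Npc2, was at -0.15 ± 0.10, -0.31 ± 0.10 and -0.10 ± 0.10 on the TMM scale, called lower in GILZ KO, and at -0.76, -0.93 and -0.73 on the TPM scale.

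The 10 hydrolases were all called lower on the TPM scale in each genotype, with medians of -0.49, -0.58 and -0.45, against 65%, 66.1% and 65.2% of all genes called lower and medians of -0.51, -0.52 and -0.51. On the TMM scale 6, 4 and 7 of them were called higher in WT, GILZ KO and GILZ TG (backgrounds 33.5%, 33.2% and 33.6%) and 1, 3 and 1 lower (35.1%, 35.4% and 35.1%), with medians of 0.16, 0.09 and 0.19. With the replicate block 7, 4 and 7 were higher (35.7%, 35% and 35.7%) and 2, 3 and 2 lower (36.6%, 36.5% and 36.5%). The largest single rise in WT was 0.34 ± 0.08 for the alpha-galactosidase gene Gla. Neu1, the sialidase that trims sialic acid from glycans, was the one hydrolase called lower on both scales in all 3 genotypes, with no replicate block. It stood at 66.7, 71.9 and 72.8 TPM in untreated WT and at 36.2, 34.1 and 44.6 after LPS. GILZ KO libraries held 69.3, 68 and 75.5 and then 36.6, 33.8 and 38.7 TPM, and GILZ TG was at 68.4, 65.8 and 74.6 and then 32.4, 34.4 and 32.2 TPM. No LPS library reached the lowest untreated one. Neu1 fell by 0.29, 0.30 and 0.44 on the TMM scale (SE 0.07 in each; edgeR adjusted p = 0.00137, 0.00111 and 2.04e-05) and by 0.87, 0.95 and 1.05 on the TPM scale. Lipa, which frees cholesterol from its esters, and Gusb, a glucuronidase, were called lower on the TMM scale in GILZ KO (-0.29 ± 0.08 and -0.10 ± 0.04). Without the replicate block neither was called in WT (-0.17 ± 0.08 and -0.10 ± 0.04) or GILZ TG (-0.15 ± 0.08 and -0.07 ± 0.04). With the block, Lipa was called lower in GILZ TG (-0.15, edgeR adjusted p = 0.00665) and in WT (-0.17, 0.0025). In WT, same-numbered libraries were not taken as pairs. The differences between genotypes were not called.

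The 4 luminal cofactors and carriers were called higher in all 3 genotypes on the TMM scale (backgrounds 33.5%, 33.2% and 33.6%). On the TPM scale 1 was called higher in each (16.1%, 15.3% and 15.6%) and 3, 3 and 2 lower (65%, 66.1% and 65.2%). Npc2, a small carrier that hands cholesterol to Npc1, rose on both scales. It stood at 459, 432 and 407 TPM in untreated WT and at 626, 592 and 545 after LPS. GILZ KO libraries held 438, 429 and 422 and then 575, 584 and 573 TPM, and GILZ TG was at 457, 428 and 441 and then 626, 601 and 599 TPM. The treatments did not overlap in any genotype. The log2 fold changes were 1.07 ± 0.06, 1.06 ± 0.06 and 1.10 ± 0.06 on the TMM scale (edgeR adjusted p = 6.67e-11, 8.41e-11 and 5.1e-11) and 0.44, 0.42 and 0.46 on the TPM scale. Psap, Gm2a and Grn were called higher on the TMM scale (0.15 ± 0.05, 0.35 ± 0.06 and 0.50 ± 0.05 in WT) and lower on the TPM scale in WT (-0.48, -0.28 and -0.14).

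**Figure D2:**
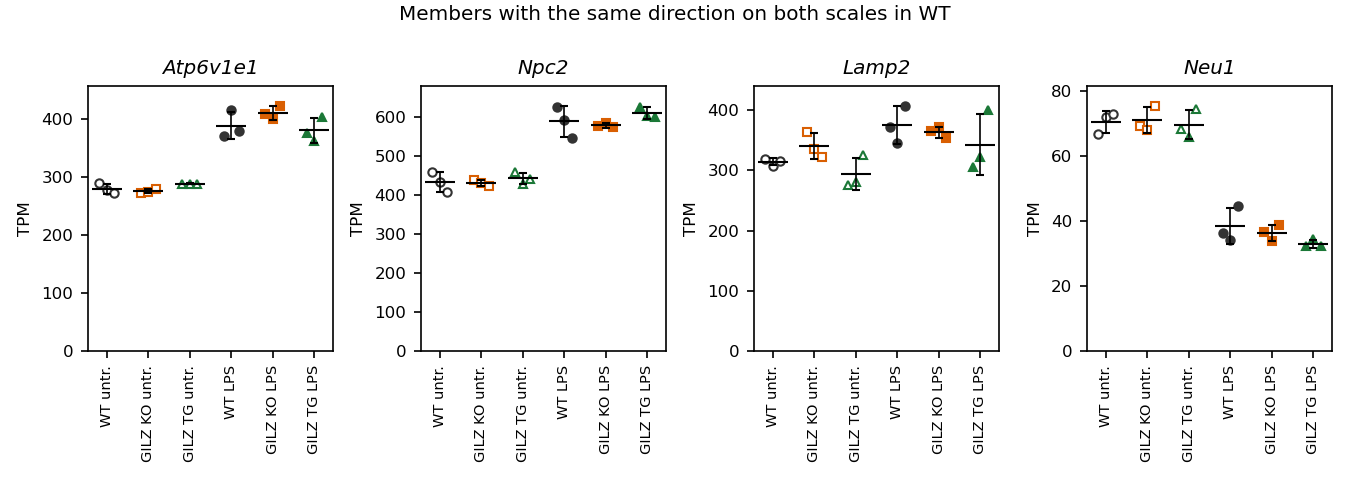
TPM of Atp6v1e1, Npc2, Lamp2 and Neu1 in all 18 libraries, with the mean and SD of 3 replicates per group. Atp6v1e1 and Npc2 are higher after LPS and Neu1 lower in each genotype without overlap; Lamp2 overlaps in GILZ KO and GILZ TG.

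Tfeb had the largest change of the 38 genes. It stood at 29.3, 28.6 and 27.5 TPM in untreated WT and at 4.05, 3.17 and 4.61 after LPS. In GILZ KO it was at 29.8, 28.4 and 29.2 and then 7.03, 6.36 and 8.29 TPM, and in GILZ TG at 31, 31.5 and 31.3 and then 4.16, 4.9 and 5.19 TPM. All untreated libraries were far above all LPS libraries, and after LPS those of GILZ KO were the highest. Tfeb fell by 2.32 in WT, 1.90 in GILZ KO and 2.33 in GILZ TG on the TMM scale (SE 0.11 in each; edgeR adjusted p = 6.52e-12, 1.24e-10 and 4.85e-12) and by 2.59, 1.88 and 2.49 on the TPM scale. The lowest count behind these values was 57. Tfe3 was at 112, 111 and 109 TPM in untreated WT and 84.7, 78.8 and 92.9 after LPS. GILZ KO had 122, 122 and 104 and then 91.8, 84.7 and 88.4 TPM, and GILZ TG was at 119, 115 and 109 and then 79.4, 91.4 and 87.5 TPM. Its TPM was lower after LPS without overlap (-0.38, -0.39 and -0.40), whereas the TMM change had the other sign, 0.28 ± 0.06, 0.29 ± 0.06 and 0.17 ± 0.06. In GILZ TG the TMM call of Tfe3 (edgeR adjusted p = 0.0239) was lost without untreated replicate 2 (0.12, adjusted p = 0.133) or 3 (0.13, 0.113) or LPS replicate 3 (0.12, 0.118).

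Their relatives Mitf and Tfec, which are not among the 38, moved opposite to Tfeb. Tfec, found mainly in macrophages, was at 23, 27.9 and 27.2 TPM in untreated WT and 94.5, 95.4 and 91.1 after LPS, and Mitf at 31.2, 30.5 and 27.1 and then 81.5, 70.5 and 84.8 TPM. Both were separate between treatments in every genotype. The TMM log2 fold changes in WT were 2.48 for Tfec and 1.99 for Mitf, and both were also called higher on the TPM scale (1.81 and 1.38).

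**Figure D3:**
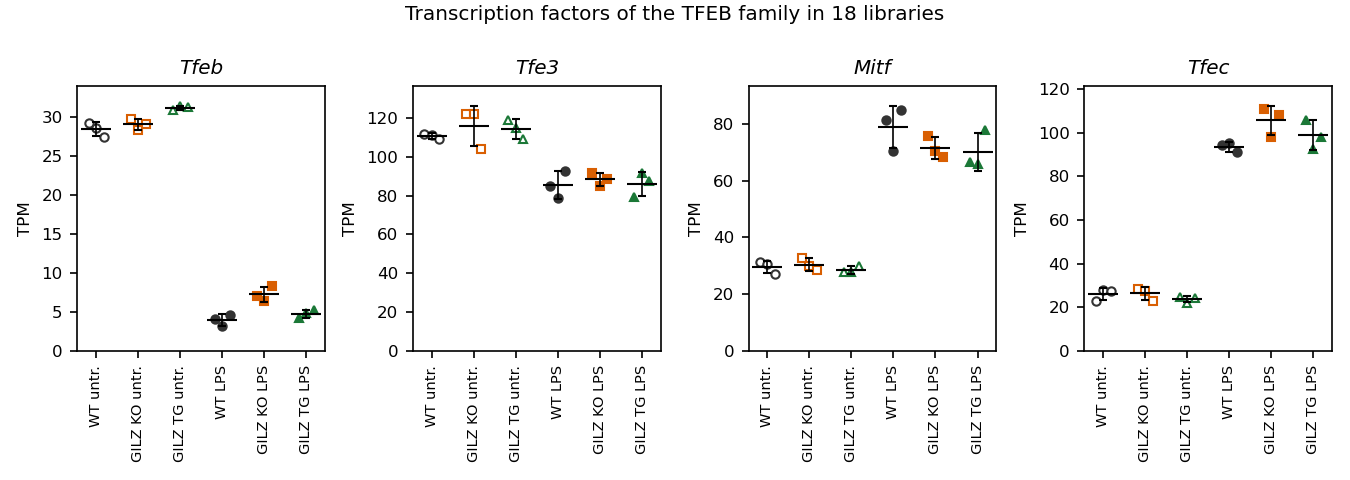
TPM of Tfeb, Tfe3, Mitf and Tfec in all 18 libraries, with the mean and SD of 3 replicates per group. After LPS, Tfeb is below 10 TPM in every library while Mitf and Tfec are above 60 TPM.

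Other lysosomal genes gave a mixed picture in WT, where 33.5% of all genes were called higher and 35.1% lower on the TMM scale and 16.1% and 65% on the TPM scale. Of 10 further V-ATPase genes 4 were expressed highly enough to test. Of these, 3 were called higher and 0 lower on the TMM scale, and 1 higher and 2 lower on the TPM scale. Tcirg1, an isoform of the V0 subunit a, had the largest log2 fold change among the 4 (1.60 on the TMM and 0.94 on the TPM scale). It stood at 458, 418 and 387 TPM untreated and 857, 774 and 796 TPM after LPS, and its treatments did not overlap. Of 25 further hydrolases 12 were called higher and 7 lower on the TMM scale, and 3 higher and 20 lower on the TPM scale. Naaa, an acid amidase, changed by 1.94 and Sgsh, a heparan sulfatase, by -1.86 on the TMM scale (1.15 and -1.98 on the TPM scale). Of 23 further membrane proteins and transporters 12 were called higher and 7 lower (7 and 14 on the TPM scale), among them the sialomucin Cd164 at 2.39 and the chloride-proton exchanger Clcn7 at 1.64 (1.75 and 0.97 on the TPM scale). Of 9 genes of mannose 6-phosphate sorting 4 were higher and 2 lower (1 and 7 on the TPM scale). Of 20 genes of the TFEB family and its regulators 10 were higher and 5 lower (2 and 15), and Flcn, part of the complex that hands nutrient signals to TFEB, changed by -1.41 (-1.88 on the TPM scale). Of 12 autophagy genes 7 were higher and 3 lower (1 and 10), and the cargo receptor Sqstm1 changed by 1.66 (1.01 on the TPM scale). On the TMM scale, with backgrounds of 33.2% higher and 35.4% lower in GILZ KO and 33.6% and 35.1% in GILZ TG, the further hydrolases had 10 higher and 7 lower in GILZ KO and 11 and 6 in GILZ TG, and the further membrane proteins 12 and 7 and then 13 and 7. The sorting genes had 1 and 2 and then 4 and 1, the TFEB family and its regulators 7 and 4 and then 9 and 4, and the autophagy genes 5 and 3 and then 6 and 3. The further V-ATPase genes had 3 and 0 in both, and 3 and 0 with the replicate block in GILZ TG. With the replicate block in GILZ TG (backgrounds 35.7% and 36.5%) the sorting genes had 5 higher and 1 lower, the TFEB family and its regulators 9 and 5 and the autophagy genes 7 and 4, while the counts of hydrolases and membrane proteins were as without it. In WT (35.7% and 36.6%) the block gave the sorting genes 5 and 2, the autophagy genes 7 and 4, the hydrolases 12 and 8 and the membrane proteins 13 and 7. In GILZ KO (35% and 36.5%) it gave the sorting genes 2 and 2 and the TFEB family and its regulators 9 and 4. Other counts in WT and GILZ KO were as without the block. On the TPM scale (backgrounds 15.3% and 66.1%, then 15.6% and 65.2%) the hydrolases had 2 higher and 20 lower in GILZ KO and 3 and 19 in GILZ TG, the membrane proteins 6 and 14 and then 8 and 13, and the sorting genes 1 and 8 and then 1 and 7. The TFEB family and its regulators had 2 and 16 in both, and the autophagy genes 1 and 10 and then 1 and 11. The further V-ATPase genes had 1 and 1 and then 1 and 2. As a check of the treatment, Tnf stood at 131, 138 and 159.6 TPM in untreated WT and at 1870.1, 2101 and 2093 TPM after LPS. Il1b, Il6 and Nos2 reached means of 4399.7, 1044 and 344 TPM in LPS-treated WT from 6.44, 0.537 and 0.133 TPM.

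Between genotypes the lysosomal genes differed little. GILZ KO against WT gave 0 of 38 calls in untreated cells (background 0.0951%) by edgeR's quasi-likelihood test, with 1 gene at an unadjusted p under 0.05 (background 9.6%) and 0 calls by DESeq2. After LPS it gave 0 calls (background 0.0822%), with 3 genes at an unadjusted p under 0.05 (background 9.63%) and again 0 by DESeq2. GILZ TG against WT gave 2 calls in untreated cells, Psap and Gm2a, both higher (background 0.642% either way and 0.364% higher), and 1 after LPS, Psap, also higher (background 0.46% and 0.263%). For this comparison DESeq2 called 3 in untreated cells and 2 after LPS, all higher. GILZ KO against GILZ TG gave 2 calls in untreated cells, Psap and Cd63, both lower (background 4.94% either way and 2.16% lower), and 0 after LPS (background 2.6%), where 6 genes had an unadjusted p under 0.05 (background 19.1%) and DESeq2 called 3. In untreated cells DESeq2 called 4, all lower. The comparisons with WT share the WT libraries and are not independent of each other. With 3 libraries against 3, an exact permutation test of a single gene cannot go below p = 0.1.

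Psap, whose product is cleaved into the saposins that present sphingolipids to hydrolases, was the most abundant of the genes and was called in 3 of the 6 genotype comparisons. In untreated cells it stood at 2967, 3039.8 and 2854 TPM in WT, 3305, 3257 and 3313 in GILZ KO and 3646, 3903 and 3670.3 in GILZ TG. After LPS it was at 2134, 2179 and 2034 TPM in WT, 2380.5, 2399 and 2339 in GILZ KO and 2753, 3003 and 2632 in GILZ TG. In both treatments the order was WT, GILZ KO, GILZ TG with no overlap between neighbours. GILZ TG exceeded WT by 0.33 ± 0.04 in untreated cells (edgeR adjusted p = 0.0096) and by 0.40 ± 0.07 after LPS (0.0357). GILZ KO was at -0.21 ± 0.04 against GILZ TG in untreated cells (edgeR adjusted p = 0.0247) and at -0.24 ± 0.07 after LPS (0.0889), and at 0.12 ± 0.04 against WT in untreated cells (0.442). The untreated TG call against WT was lost without WT replicate 2 (0.34, adjusted p = 0.0668) or GILZ TG replicate 2 (0.30, 0.0548). The LPS call held only without GILZ TG replicate 3 (0.42, adjusted p = 0.00534); leaving out WT replicate 1, 2 or 3 gave 0.0679, 0.114 and 0.1, and GILZ TG replicate 1 or 2 gave 0.118 and 0.15. The call of GILZ KO against GILZ TG was lost without GILZ KO replicate 1 (0.1), 2 (0.0959) or 3 (0.0783) or GILZ TG replicate 2 (0.106). Without GILZ TG replicates 1 and 2, the pair with stromal and neutrophil transcripts, Psap was at 0.32 ± 0.06 against WT in untreated cells (edgeR adjusted p = 0.105) and at 0.34 ± 0.09 after LPS (0.303), and GILZ KO was at -0.21 ± 0.06 against GILZ TG in untreated cells (0.164); all 3 calls were lost. The untreated call against WT held with limma on log2(TPM + 1) (0.0368) but not with only the libraries compared (0.0882) or with TPM centred on the median of all genes (0.0571). The LPS call was lost with limma on log2(TPM + 1) (0.0605), with the replicate block (0.0753), with centred TPM (0.11) and with only the libraries compared (0.174). The call between GILZ KO and GILZ TG was lost with limma on log2(TPM + 1) (0.097), with centred TPM (0.0602) and with no filter on low counts (0.0776).

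Gm2a encodes the activator that lifts ganglioside GM2 to the hexosaminidase of which Hexa is a subunit. It stood at 60, 60.8 and 58 TPM in untreated WT, 64, 62.4 and 68.7 in GILZ KO and 72.2, 72.8 and 73.4 in GILZ TG. After LPS it was at 49.8, 49.5 and 47.6, at 49.4, 52.1 and 50.9 and at 56.7, 62.2 and 61 TPM. GILZ TG was above both other genotypes without overlap in each treatment. The difference from WT was 0.28 ± 0.05 in untreated cells (edgeR adjusted p = 0.0372) and 0.29 ± 0.06 after LPS (0.0838). The untreated call held without GILZ TG replicate 3 (0.27, adjusted p = 0.0211) and was lost without WT replicate 1 (0.107), 2 (0.197) or 3 (0.0529) or GILZ TG replicate 1 (0.0963) or 2 (0.158); without GILZ TG replicates 1 and 2 it was 0.31 ± 0.07 (0.279). It was also lost with limma on log2(TPM + 1) (0.0667), with centred TPM (0.0609) and with only the libraries compared (0.121).

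Cd63, a tetraspanin of lysosomes and secretory vesicles, was at 1064, 1061 and 945 TPM in untreated WT, 1067, 964 and 975 in GILZ KO and 1163, 1237 and 1143 in GILZ TG. After LPS it was at 829.5, 782 and 710.1, at 761, 750.4 and 775 and at 984, 940.1 and 797 TPM. GILZ KO lay below GILZ TG without overlap in both treatments, and GILZ KO and WT overlapped. GILZ KO was at -0.27 ± 0.06 against GILZ TG in untreated cells (edgeR adjusted p = 0.0295) and -0.26 ± 0.09 after LPS (0.137). The untreated call held without GILZ TG replicate 3 (-0.29, adjusted p = 0.0182), and was lost without GILZ KO replicate 1 (0.0531), 2 (0.115) or 3 (0.0948) or GILZ TG replicate 1 (0.0637) or 2 (0.125); without GILZ TG replicates 1 and 2 it was -0.24 ± 0.08 (0.192). It was also lost with limma on log2(TPM + 1) (0.09) and with all 18 libraries in one fit (0.052). Cd63 is one of 3 members, with Atp6v0c and Glb1, whose expected counts were not whole (within 0.005) in any library, so part of their reads was shared with other loci and their values are less certain.

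**Figure D4:**
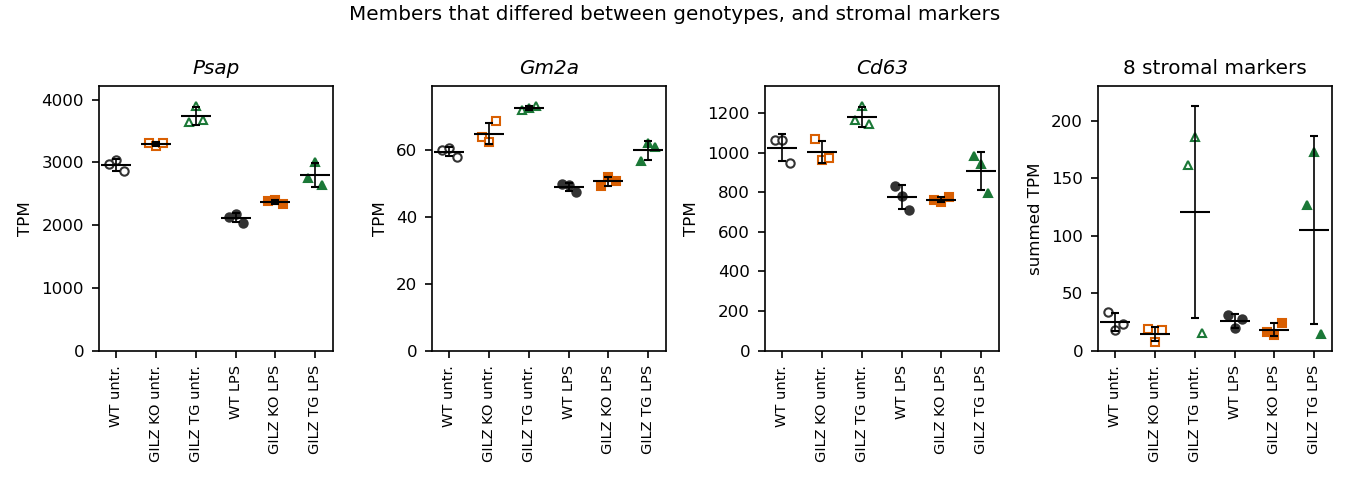
TPM of Psap, Gm2a and Cd63 and the summed TPM of 8 stromal fibroblast markers in all 18 libraries, with the mean and SD of 3 replicates per group. Psap and Gm2a are highest in GILZ TG in each treatment, and the stromal sum is highest in GILZ TG replicates 1 and 2 (127 to 186 TPM).

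By overlap of TPM alone, 8 genes (21.1%, background 12.7%) were higher in every untreated GILZ KO library than in any WT library and 0 were lower (background 4.52%). For untreated GILZ TG against WT these were 8 (21.1%, background 9.75%) and 0 (5.1%); Psap, Gm2a and the pump genes Atp6v0a1 and Atp6v1f were in both sets, which share the WT libraries. In the comparison of GILZ KO with GILZ TG, 2 genes were higher (5.26%, background 18.6%) and 7 lower (18.4%, background 10.1%) in untreated cells. After LPS, GILZ KO against WT had 6 higher (15.8%, background 9.62%) and 1 lower, Asah1 (2.63%, background 6.66%). GILZ TG against WT then had 5 higher (13.2%, background 7.78%) and 0 lower (background 7.43%). GILZ KO against GILZ TG had 3 higher (7.89%, background 11.2%) and 7 lower (18.4%, background 9.36%) after LPS. Atp6v0d2 had the largest estimates of the latter comparison, -0.75 ± 0.28 in untreated cells and -0.95 ± 0.30 after LPS, with adjusted p = 0.133 and 0.12 by edgeR's quasi-likelihood test; without GILZ TG replicates 1 and 2 they were -0.24 ± 0.35 and -0.40 ± 0.38 (0.748 and 0.75). Atp6v0d1 differed by 0.01 ± 0.10 and 0.14 ± 0.07 in the same comparisons (0.963 and 0.326). The summed level of the 9 osteoclast markers, led by Mmp9, was 432, 385 and 229 TPM in untreated GILZ TG and 168, 234 and 273 TPM in GILZ KO, and 463, 392 and 263 against 289, 328 and 435 TPM after LPS. These sums, mostly Mmp9, overlapped between the genotypes in both treatments. The mean was higher in GILZ TG than in GILZ KO for 7 of the 9 markers and lower for Nfatc1 and Oscar in untreated cells, and higher for 8 after LPS. Every GILZ TG library was above every GILZ KO library for 2 of the 9 markers in untreated cells (background 10.1%) and 3 after LPS (9.36%). The reverse held for 0 in each treatment (18.6% and 11.2%). Of these markers Dcstamp, a fusion protein of osteoclast precursors, was called lower in GILZ KO in both treatments (-0.73 ± 0.11 and -0.75 ± 0.14, edgeR adjusted p = 0.0112 and 0.0239). Whether cells of that kind bear on the values of Atp6v0d2 was not tested.

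Of the further lysosomal lists, no gene was called in a comparison with WT. In GILZ KO against GILZ TG, the sorting receptor Sort1 (0.58 ± 0.07) and the endolysosomal channel Tpcn1 (0.21 ± 0.05) were higher and the Ragulator subunit Lamtor2 (-0.22 ± 0.05) lower in untreated cells (background 4.94%). After LPS, Clcn7 (0.37 ± 0.08), Flcn (0.45 ± 0.10) and the tethering factor Vps18 (0.34 ± 0.06) were higher and the membrane protein Cln3 (-0.32 ± 0.06) lower (background 2.6%). With limma on log2(TPM + 1), Sort1 and Clcn7 were called (adjusted p = 0.0217 and 0.0438), while Tpcn1, Lamtor2, Flcn, Vps18 and Cln3 were not (0.0703, 0.0905, 0.166, 0.0766 and 0.0766). Without GILZ TG replicates 1 and 2 none of the 7 was called by edgeR: Sort1 was at 0.47, Tpcn1 at 0.21 and Lamtor2 at -0.18 in untreated cells (adjusted p = 0.101, 0.188 and 0.233). Clcn7 was then at 0.22, Flcn at 0.37, Vps18 at 0.40 and Cln3 at -0.31 after LPS (0.43, 0.405, 0.16 and 0.231).

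**Figure D5:**
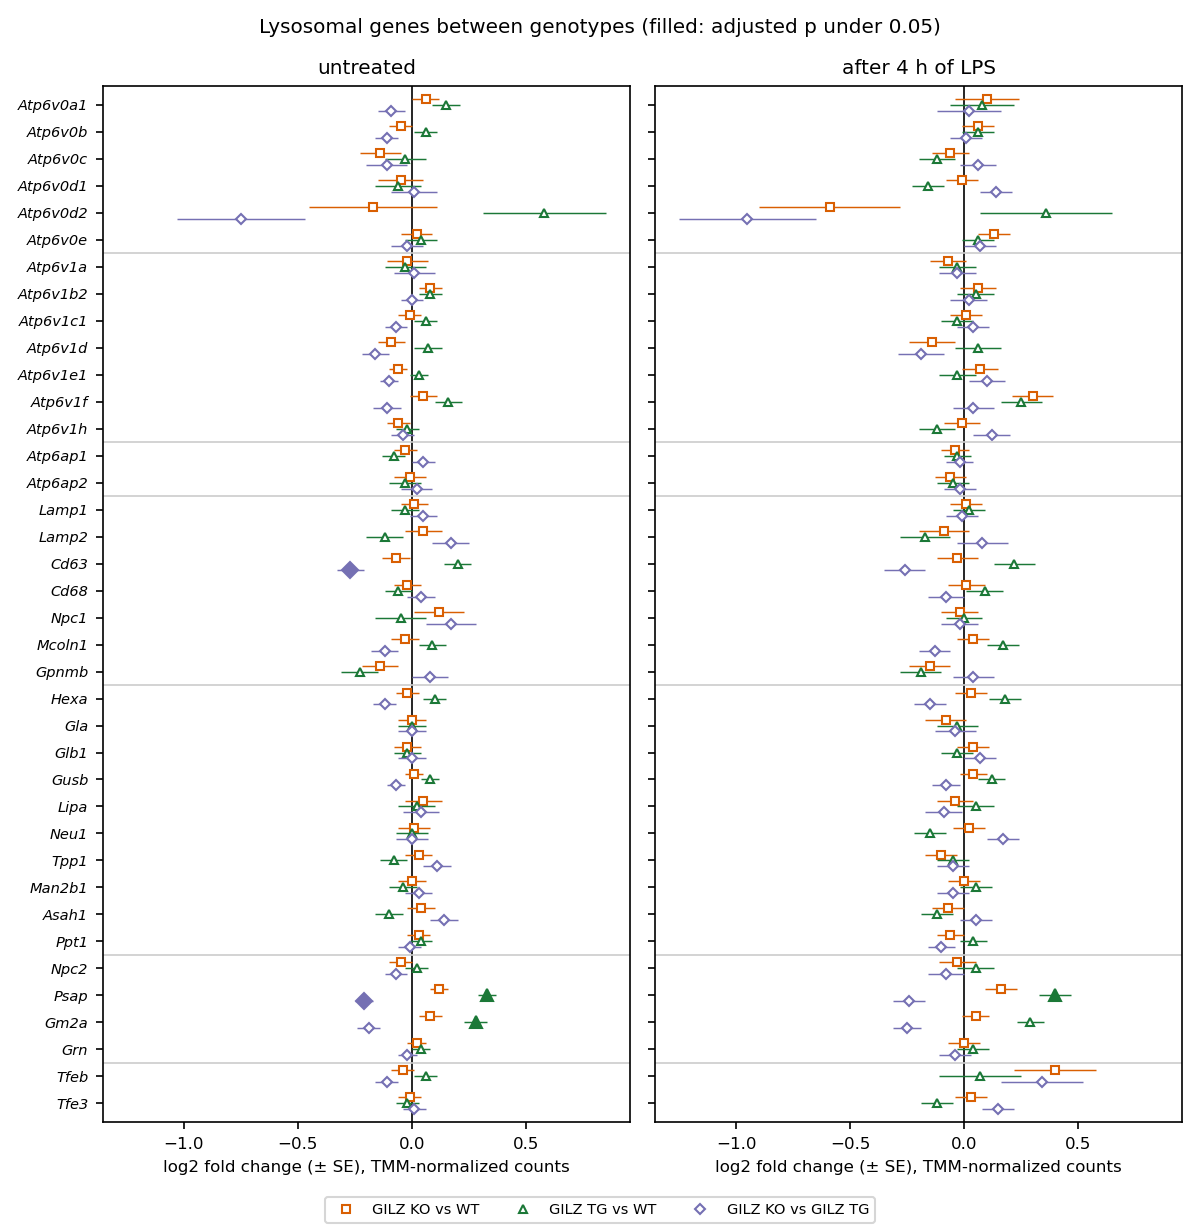
Log2 fold change between genotypes of each of the 38 genes on the TMM scale in untreated (left) and LPS-treated (right) BMMs, with one symbol per comparison, bars of 1 SE and filled symbols for adjusted p under 0.05. Most estimates lie close to 0, and Psap, Gm2a and Cd63 are the called genes.

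The response to LPS was not called different between genotypes for any of the 38 genes. By edgeR's quasi-likelihood test of the interaction, 0 were called for GILZ KO against WT (background 0.0152%), 0 for GILZ TG against WT (0.00759%) and 0 for GILZ KO against GILZ TG (0.121%). At an unadjusted p under 0.05 there were 2, 0 and 1 (backgrounds 6.36%, 3.09% and 9.92%), and DESeq2 called 0 in each. Tfeb, with the smaller fall in GILZ KO, differed from WT by 0.42 ± 0.16 (adjusted p = 0.696) and from GILZ TG by 0.42 ± 0.16 (0.338). After LPS its level in GILZ KO was 0.40 ± 0.18 above WT on the TMM scale (edgeR adjusted p = 0.516) and 0.74 on the TPM scale, and the libraries did not overlap in TPM. The effective length of Tfeb changed to 0.685 of its untreated value in GILZ KO, 0.934 in WT and 0.854 in GILZ TG; TPM divides by this length and the TMM scale does not, and its part in the gap between the scales was not tested. A p that misses the threshold does not show that the responses were alike.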

How the data were processed

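RNA of 18 libraries (poly(A)-selected, directional kit, single reads of 75 nt) was mapped by the authors to GRCm38 (mm10) with the grape-nf pipeline after FastQC 0.11.2, per the study's methods and processing notes. The deposited files give, per gene and library, an expected count and a TPM value made by the authors. The authors' tables of DESeq2 (1.40.2) comparisons hold fold changes and p-values, which were not used, only their gene names. Rows without a gene name, present in 14 libraries, were dropped. Library totals and the lowest counts set the precision. The gene list, the further lists and the tests were chosen with earlier results of these data known.

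Expected counts were rounded and fitted with edgeR 4.0.16 (quasi-likelihood F test, TMM, filterByExpr), with Benjamini-Hochberg adjustment over all genes tested and a threshold of 0.05. LPS comparisons and interactions used 18 libraries in 6 groups, genotype comparisons the 9 libraries of a treatment. TPM values were fitted with limma 3.58.1 on log2(TPM + 1), a scale that understates changes of low genes. Named with the value in every library were the 4 genes of largest change after LPS in WT in each direction among those called (2 were lower), those called between genotypes, Atp6v0d1, Atp6v0d2, Tfeb and Tfe3. Alternatives were DESeq2 1.42.0, its size factors, no filter, a pseudocount of 0.1, a replicate block, other sets of libraries and each library left out; library totals, centred TPM and the fit without GILZ TG replicates 1 and 2 were added after seeing the data. The study describes the replicates as independent preparations; the labels do not tie equal numbers in different groups to one animal, and no batch is labelled. Deviations of same-numbered untreated and LPS libraries from their group means correlated at 0.266, 0.397 and 0.605 in GILZ TG, all over 0.1, so the numbers were taken to pair these libraries and the blocked values are given where they change a call. In WT (0.264, -0.013 and 0.055) and GILZ KO (-0.033, 0.086 and 0.095) they were not. Blocked values of WT and GILZ KO are given as an alternative.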

Additional observations from a re-analysis of the deposited data

How the results depend on the processing

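The direction of most changes after LPS depended on the scale. The number of genes called higher fell from 27 in WT, 25 in GILZ KO and 28 in GILZ TG to 3, 2 and 3 with limma on log2(TPM + 1), with a pseudocount of 0.1 and with library totals in place of TMM; those called lower rose to 31, 32 and 32 with limma at either pseudocount and to 34, 32 and 34 with library totals. With limma on log2(TPM + 1) the members' medians went from 0.24, 0.24 and 0.25 to -0.39 in each genotype, and that of all genes in WT from -0.02 to -0.51. With TPM centred on the median of all genes in each library the split was 24 and 4, 24 and 5, and 22 and 3. On unadjusted p 4 genes were lower in WT. Tfe3 reversed to -0.38, -0.39 and -0.40 in WT, GILZ KO and GILZ TG with log2(TPM + 1), to -0.38, -0.39 and -0.41 with log2(TPM + 0.1) and to -0.40, -0.35 and -0.51 with library totals. Atp6v0d1 reversed to -0.39, -0.39 and -0.49 with either pseudocount and to -0.43, -0.39 and -0.54 with library totals. With each library left out in turn, 24 to 29, 21 to 30 and 24 to 31 genes were called in WT, GILZ KO and GILZ TG, 21 to 27, 17 to 25 and 21 to 28 of them higher and 2 to 5, 4 to 5 and 2 to 3 lower. For GILZ TG against WT in untreated cells (2 calls), DESeq2 called 3, limma called 1 at either pseudocount and 6 passed on unadjusted p (14.1% of all genes). With centred TPM and with only the libraries compared 0 were called, and leaving out 1 library gave 0 to 2. After LPS (1 call), 2 were called with DESeq2, no filter, library totals and all 18 libraries, 6 on unadjusted p (15.2% of all genes), and 0 with limma, centred TPM, only the libraries compared and without GILZ TG replicates 1 and 2; leaving out 1 library gave 0 to 3. For GILZ KO against GILZ TG in untreated cells (2 calls), DESeq2 called 4, no filter, centred TPM and all 18 libraries 1 each, limma and the fit without GILZ TG replicates 1 and 2 0, and 7 passed on unadjusted p (24.6% of all genes); leaving out 1 library gave 0 to 4. After LPS (0 calls), DESeq2 and all 18 libraries gave 3, no filter 1, unadjusted p 6 (19.1%), and leaving out 1 library 0 to 4. GILZ KO against WT had 1 gene on unadjusted p untreated and 3 after LPS, and the interactions had 2 (GILZ KO against WT) and 1 (GILZ KO against GILZ TG). With the replicate number as a block, 5 genes were lower after LPS in GILZ TG. In WT the block gave 30 higher and 3 lower (backgrounds 35.7% and 36.6%), and in GILZ KO 27 and 6 (35% and 36.5%). The block called 4 genes in untreated GILZ KO against GILZ TG and 0 in GILZ TG against WT after LPS. Correlations above 0.1 were found for 2 of 18 pairs of libraries within a treatment and 4 of 9 across treatments. The numbers were therefore taken to pair libraries only across treatments of GILZ TG, by the data alone. In WT the correlation of replicate 1 was 0.264, close to the 0.266 of GILZ TG replicate 1. Low correlations in WT and GILZ KO do not show that their same-numbered libraries came from different animals. The cause of the shifts between settings was not tested. Counts as low as 57 and groups of 3 limit what could be called.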
